A study of Rattus norvegicus with 64 samples.

Results

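Of the 64 rats whose blood RNA was sequenced, 5 gave libraries with more than 5000 counts of Mb, the gene for myoglobin, the oxygen-binding protein of heart and skeletal muscle. They were set against the 25 rats with fewer than 100 Mb counts in the treatment groups that hold those 5, to describe which genes besides Mb accompany heart tissue in blood and which do not. Whole blood was drawn by cardiac puncture from adult male Sprague-Dawley rats of 85 to 90 days, 3 h after the last of 4 injections given 2 h apart, a method in which a needle is passed into the heart. The groups were amphetamine at 22.5 C (labelled Amphetamine Hyperthermic, 22 rats, AMPH hyperthermic below), amphetamine in a 16 C environment (labelled Amphetamine Noromothermic, 15 rats, AMPH normothermic), saline at 39 C (labelled Saline Hyperthermic-EIH, 16 rats, EIH, an environmentally induced hyperthermia), saline at 22.5 C (labelled Saline Control, 6 rats numbered 17 to 22) and saline at 16 C (labelled Saline Control Cool Environment, 5 rats, Saline cool). All rats received injections of either saline or amphetamine, so no untreated rat is among them, and each library is 1 rat. The 5 rats were AMPH normothermic 2 and 12, EIH 12, and Saline control 20 and 22, and values below follow that order. The 25 rats below 100 Mb counts were 13 EIH, 9 AMPH normothermic and 3 Saline control rats.

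Heart muscle is built from sarcomeres, in which myosin and actin filaments slide under the control of the troponins, and calcium is released and taken up by the sarcoplasmic reticulum. Its cells are packed with mitochondria, and use muscle forms of creatine kinase and cytochrome oxidase subunits. Atrial and ventricular muscle use different myosin light chains, and atrial muscle is the main source of natriuretic peptide A in the adult heart. Between the muscle cells lie capillary endothelium, fibroblasts and, on the outer surface, a mesothelial layer. In whole blood, fewer cells of a type and less RNA per cell cannot be told apart.

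The rats were chosen by their Mb counts, given here as a description with no test. Mb was counted 19852, 12973, 9909, 11909 and 13382 times in the 5 rats, of 26666448 to 39569802 counts in a library. The next highest rat of the series, EIH 4, had 1133 counts, and no rat lay between that and the 9909 of EIH 12. At the lower limit, AMPH hyperthermic 9 had 87 Mb counts and AMPH hyperthermic 7 had 101. In all, 49 rats lay below 100 counts, with a median of 11, and 10 rats lay between the limits. Every gene compared between the 5 rats and the others belongs to the same contrast as Mb, so fold changes and calls below describe what accompanies Mb and are not independent results.

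The Mb, Tnnt2, Myl3 and Nppa promoters are shown because Mb chose the rats, Tnnt2 (cardiac troponin T) kept the steadiest proportion to it, Myl3 is the ventricular light chain of the rule's markers, and Nppa (natriuretic peptide A) ran from 0.822 to 196 counts per 1000 Mb counts. They are the 250 bases before the start of each gene in RefSeq, for Tnnt2 the lower of 2 starts in the table (build GRCr8, Mb on the minus strand at chr7:110647743-110647992, Tnnt2 on the plus strand at chr13:49818873-49819122, Myl3 on the plus strand at chr8:119616844-119617093, Nppa on the plus strand at chr5:163711934-163712183). Capitals mark matches on either strand. The motifs searched were TATAAA for the TATA box, CATTCC as the core of the site known as M-CAT, CAGCTG as an E-box, the MEF2 box and the CArG box, and no matches overlapped in these windows. The MEF2 box was searched as CTA followed by any 4 bases and then by TAG.
Mb: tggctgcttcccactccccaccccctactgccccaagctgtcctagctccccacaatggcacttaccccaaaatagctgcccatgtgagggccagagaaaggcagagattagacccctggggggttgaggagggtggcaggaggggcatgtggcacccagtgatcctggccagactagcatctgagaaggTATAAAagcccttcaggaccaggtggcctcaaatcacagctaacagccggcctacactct
Tnnt2: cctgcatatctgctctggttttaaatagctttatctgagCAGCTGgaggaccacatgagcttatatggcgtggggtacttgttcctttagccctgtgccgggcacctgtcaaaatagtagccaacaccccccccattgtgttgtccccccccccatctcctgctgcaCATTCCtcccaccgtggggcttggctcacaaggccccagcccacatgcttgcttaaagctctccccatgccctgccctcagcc
Myl3: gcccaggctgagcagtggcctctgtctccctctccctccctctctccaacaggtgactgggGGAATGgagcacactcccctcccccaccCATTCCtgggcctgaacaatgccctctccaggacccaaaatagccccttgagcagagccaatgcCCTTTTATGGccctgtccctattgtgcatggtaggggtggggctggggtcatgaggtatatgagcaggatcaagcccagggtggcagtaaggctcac
Nppa: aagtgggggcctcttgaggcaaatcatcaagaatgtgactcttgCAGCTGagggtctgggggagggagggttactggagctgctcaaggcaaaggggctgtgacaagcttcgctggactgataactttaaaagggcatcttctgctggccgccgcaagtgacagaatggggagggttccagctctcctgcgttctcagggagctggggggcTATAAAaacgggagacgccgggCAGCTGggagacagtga
TATAAA was present 60 bases before the start of Mb and 39 bases before that of Nppa, and in 12.9% of 33469 RefSeq promoter windows of the same length. CATTCC occurred 2 times before Myl3 and 1 time before Tnnt2, against 12.1% of all windows with a match. A CArG box, the serum response factor motif of many muscle genes, was found before Myl3, 97 bases from its start, and in 1.50% of all windows. CAGCTG was found before Tnnt2 and Nppa and in 12.0% of windows, and the MEF2 box in none of the 4 and in 3.41% of windows. Of 79 listed heart muscle and chamber genes, 60 had a window in the table.

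All of the other 5 markers named with Mb separated the rats in the same way. Tnni3, the cardiac troponin I, was counted 11152, 8618, 3753, 5182 and 5075 times in the 5 rats, against at most 14 counts in any of the 25 rats below. Tnnt2 gave 4933, 3042, 2505, 3011 and 3267 counts against at most 36. Myl3 gave 7656, 4371, 3268, 3959 and 3837 counts against at most 23. For each of these the ranges of the 5 rats and of the 25 rats did not overlap in CPM (counts per 1000000 counts of the library), and AMPH normothermic 2 was the highest rat. Actc1, the cardiac alpha-actin, gave 8890, 3789, 2465, 4214 and 7878 counts against at most 33. Myh6, the fast myosin heavy chain of rat heart, gave 4294, 801, 1145, 2089 and 4338 counts against at most 17.8, and AMPH normothermic 12, second in Tnni3, was the lowest rat in Myh6. Fitted with treatment group as covariate (edgeR quasi-likelihood, TMM), the log2 fold change of the rats above over the rats below was 11.02 for Tnni3 (SE 0.43), 10.21 for Myl3 (SE 0.48), 9.96 for Tnnt2 (SE 0.54), 9.55 for Actc1 (SE 0.58) and 9.42 for Myh6 (SE 0.55). Myh6 with Myh7, and Actc1 with Acta1, are near-identical pairs in which the split of shared reads is uncertain.

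Below the limit the same markers still went together, in rats that the rule puts on one side and so does not separate. In the 49 rats with fewer than 100 Mb counts, the summed CPM of the other 5 markers followed the Mb level, with Pearson r = 0.907 and Spearman rho = 0.909 on the log2(CPM + 0.1) scale after subtraction of treatment group means (permutation test within treatment groups, two-sided, n = 49, p = 1e-05 for each, the smallest that 100000 resamples can give, adjusted p = 2e-05 over the family of 4). Without the 2 rats farthest from the median Mb level r was 0.895, and in the 23 rats with fewer than 10 Mb counts r was 0.783 (permutation p = 8e-05). The points share a library and a total count for both axes. Within the 3 sequencing projects that hold at least 6 of these rats, by the code in each file's name, r was 0.949, 0.828 and 0.878 (n = 6, 6 and 9). The counts behind the low end are few, since the 5 markers together had a median of 16 counts in the 49 rats and were at 0 in 6 of them. The 10 rats between the limits were a set added after the data had been seen. For them treatment group means were not subtracted, and permutation ran across groups. Their r was 0.932 and rho 0.927 (permutation test, n = 10, p = 9e-05 and 0.00049, adjusted 0.00012 and 0.00049), and without the 2 farthest rats r was 0.882. The plot of marker counts by rat shows 1 sloping band with the 5 rats at its upper end.

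**Figure D1:**
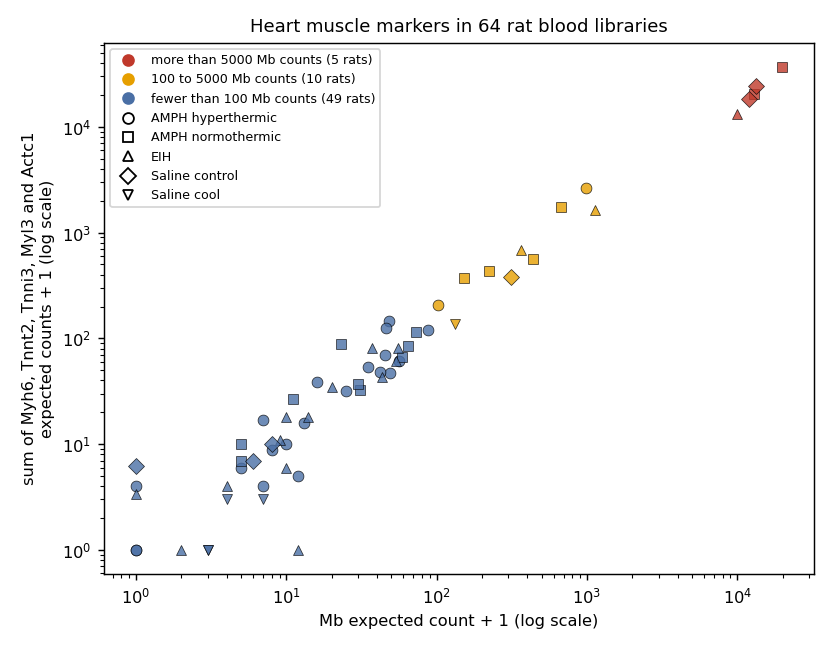
Each point is 1 of the 64 rats, with its Mb expected count + 1 on the horizontal axis and the summed expected counts of Myh6, Tnnt2, Tnni3, Myl3 and Actc1 + 1 on the vertical axis, both on log scales. Colour gives the Mb class and shape the treatment group, and the 10 rats between the limits lie on the line from the 49 rats below to the 5 rats above, which are separated from them by the gap between 1133 and 9909 Mb counts.

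Proportions of one gene to another inside a library are not fixed by the Mb limit. Expressed as counts per 1000 Mb counts, Tnnt2 was 248, 234, 253, 253 and 244 in the 5 rats, with a mean of 247 ± 7.64 (SD, n = 5). The coefficient of variation was 3.10%, beside the 1.98% that counting error alone gives. Ckmt2, the mitochondrial creatine kinase of muscle, was 66.9, 62.6, 61.4, 67.9 and 60.7 counts per 1000 Mb counts, with a coefficient of variation of 5.14%. Myl3 varied by 10.5%, and Fabp3, the fatty acid-binding protein of heart, by 12.9%. Among the 34 genes called higher that had at least 100 counts in each of the 5 rats and a median CPM in the rats below under 5% of the lowest rat above, the median coefficient of variation was 28.8%, and 16 genes stayed within 2-fold between the highest and the lowest rat. At the other end, Hspb8, a small heat shock protein, varied by 114%, Myh7, the slow myosin heavy chain, by 74.3%, Csrp3, a Z-disc protein, by 73.2% and Xirp2 by 63.4%. Myh7 was 82.8, 51.7, 22.4, 27.7 and 9.74 counts per 1000 Mb counts, highest in both AMPH normothermic rats. Myh6 ran in another order, 216, 61.8, 116, 175 and 324 counts per 1000 Mb counts, highest in Saline control 22, which was lowest in Myh7. AMPH normothermic 12 was the highest rat for 13 of the 34 genes and the lowest for 8, and Ankrd1, Csrp3 and Xirp2 were highest there and Myh6 and Myom2 lowest. Where the pooled counts of the 49 rats below 100 Mb counts, 1070 for Mb, were used the same way, Tnnt2 stood at 264 counts per 1000 Mb counts (95% exact interval 230 to 301) and Myl2, the ventricular regulatory light chain, at 116 (95.4 to 140). Of 19 genes pooled in this way, the interval held the mean of the 5 rats for 6 (Tnnt2, Myl2, Myh6, Nppb, Cox6a2 and Csrp3), lay wholly above it for 7 and wholly below it for 6. Ckmt2, steady among the 5 rats, was lower in the pool, at 37.4 (26.6 to 51.2) against a mean of 63.9, and Tnni3 was 263 (229 to 300) against 484. Actc1 was higher in the pool, at 531 (479 to 588) against 386, and Hspb8 was 1454 against 36.4. The pooled Hspb8 counts, 1556, exceeded those of Mb, and 639 of them came from EIH 9, with 36 Mb counts. In the 10 rats between the limits Tnnt2 ranged from 214 to 653 counts per 1000 Mb counts. These intervals cover counting error only.

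**Figure D2:**
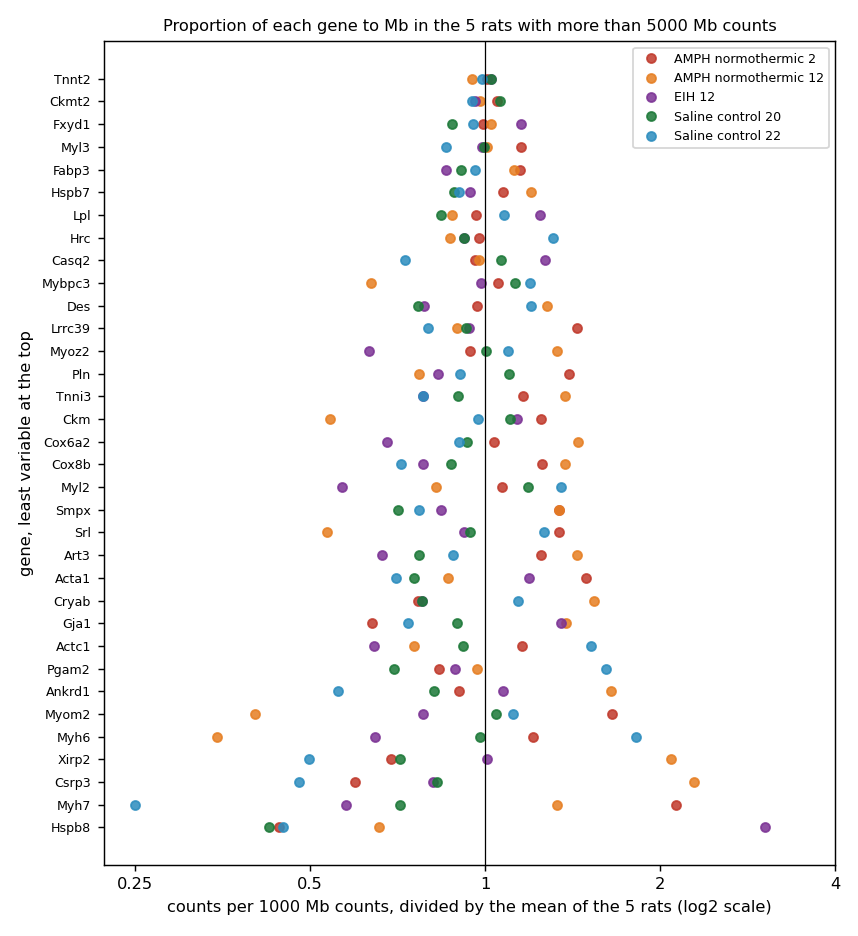
For each of 34 genes, counts per 1000 Mb counts in each of the 5 rats are divided by the mean of the 5 rats, on a log2 axis, with the least variable gene at the top and 1 point per rat. Tnnt2 and Ckmt2 lie close to 1 in all 5 rats, while Myh7 and Hspb8 at the foot differ 8.51-fold and 7.13-fold between the highest and the lowest rat.

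Ventricular muscle genes were present in all 5 rats. Myl2 gave 2398, 1206, 635, 1593 and 2042 counts against at most 10 in the rats below, or 121, 93.0, 64.1, 134 and 153 counts per 1000 Mb counts. Myh7 gave 1644, 671, 222, 330 and 130 counts. Nppb, the natriuretic peptide that stretched ventricle secretes, gave 557, 2077, 61, 148 and 29 counts, highest in AMPH normothermic 12 and lowest in Saline control 22. All 4 tested ventricular genes were called higher, where 5.02% of the 13197 genes tested were called in that direction, with a log2 fold change of 9.60 for Myl2 (SE 0.48), 9.63 for Myh7 (SE 0.46) and 9.93 for Nppb (SE 0.49). Of those 4, 3 passed the filter on low counts only through the 5 rats. The transcription factors Irx4 (10, 4, 1, 5 and 9 counts) and Hey2 (5, 1, 0, 6 and 7 counts) were too sparse to be tested, and Irx5 was not listed in the files of both Saline control rats.

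Most atrial genes had few counts. Of the 11 listed, 4 had at most 3 counts in each of the 5 rats, beside 10.9% of the 17366 genes listed in all files. Bmp10, an atrial growth factor, had 0 counts in all 5 rats, which allows at most 3 counts in a library or 0.0758 to 0.113 CPM. Sln, sarcolipin, the atrial regulator of the calcium pump, was at 0, 0, 0, 1 and 0 counts. Myl4, the atrial essential light chain, gave 4, 9, 3, 6 and 3 counts, and Kcna5, an atrial potassium channel, 1, 0, 1, 2 and 1 counts. Myl7, the atrial regulatory light chain, gave 321 counts in AMPH normothermic 2 and 6, 0, 5 and 0 in the others. Nppa was the exception, with 3900, 801, 50, 29 and 11 counts against at most 5 in the rats below. Per 1000 Mb counts Nppa was 196, 61.7, 5.05, 2.44 and 0.822, where Myl2 differed 2.38-fold between the highest and the lowest rat. AMPH normothermic 2, the only one of the 5 with Myl7 above 10 counts, was also the highest in Nppa. Of 11 atrial list genes, 2 were tested, Nppa and Dkk3 (58, 19, 46, 13 and 14 counts). Both were called higher, beside 5.02% of all genes tested, and both passed the filter only through the 5 rats.

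An atrial pattern did occur elsewhere in the series. Among the 10 rats between the limits, AMPH normothermic 1 had 151 Mb counts, 176 of Myl7, 39 of Myl4, 238 of Nppa and 12 of Sln, but 1 of Myl2 and 4 of Myl3. AMPH hyperthermic 7 had 101 Mb counts, 86 of Myl7, 16 of Myl4 and 161 of Nppa beside 12 of Myl2. In counts per 1000 Mb counts, their Myl7 was 1166 and 852, against 24.0 or less in the other 8 rats between the limits and 16.2 or less in the 5 rats above. No other rat of the 64 had more Myl7 than Myl2 among those with at least 10 Myl7 counts. The remaining 8 rats between the limits had 10 to 185 Myl2 counts and at most 16.2 of Myl7. AMPH normothermic 3, with 140 Nppa counts and 16.2 of Myl7 beside 141 of Myl2, held both, as AMPH normothermic 2 did. AMPH hyperthermic 7 also held both, on few counts. Its Myl2 was 119 counts per 1000 Mb counts, within the 64.1 to 153 of the 5 rats above, where AMPH normothermic 1 had 6.62. In the plot of chamber genes by rat, AMPH normothermic 1 and AMPH hyperthermic 7 sit above all others for Nppa, Myl7 and Myl4.

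**Figure D3:**
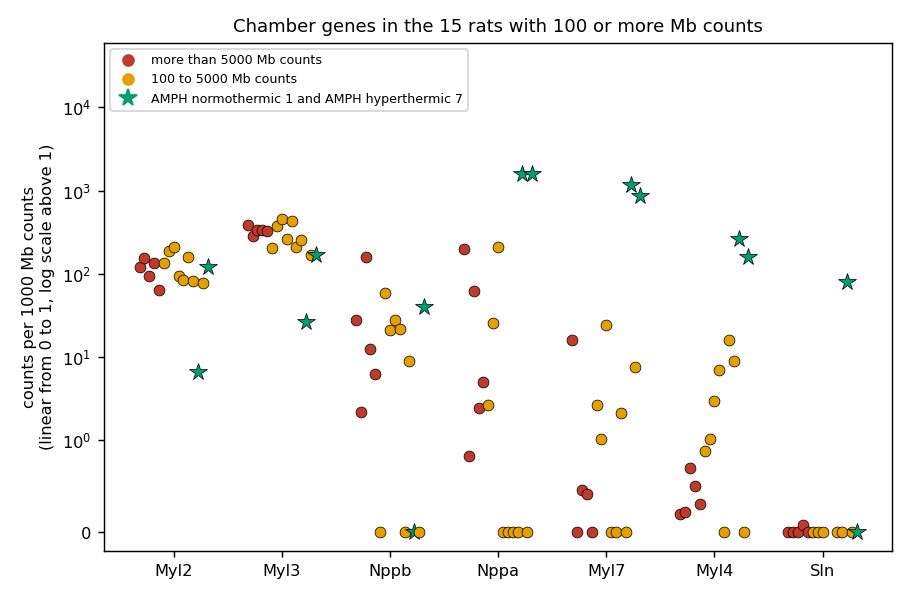
Counts per 1000 Mb counts of 7 genes (horizontal axis) in the 15 rats with 100 or more Mb counts, with the vertical axis linear from 0 to 1 and logarithmic above. Stars mark AMPH normothermic 1 and AMPH hyperthermic 7, at 1166 and 852 for Myl7 where the 5 rats above (red) lie between 0 and 16.2, and Myl2 lies between 64.1 and 153 in all 5 rats above.

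Beyond the markers, the heart muscle lists (sarcomere, calcium and membrane, muscle metabolism and the other 5 markers) held 62 listed genes without Mb, of which 54 were tested and 46 called higher, against 5.02% of all genes tested called higher and 5.66% called in either direction. The median log2 fold change was 6.10, beside -0.05 over all genes tested, and 24 of the 54 passed the filter only through the 5 rats, so that these had to differ. For 35 of the 54 the 5 rats lay wholly above the 25, which held for 1.03% of all genes tested. Among sarcomere genes, Ankrd1, a stretch-responsive titin partner, gave 4449, 5307, 2640, 2415 and 1853 counts against at most 24, Des (desmin) 1291, 1113, 521, 613 and 1075 against at most 12, and Cryab, a chaperone of muscle and lens, 2886, 3784, 1465, 1760 and 2893 against at most 40. A second set of genes had a level of its own in the rats below, and smaller folds. Tpm1, a tropomyosin also found in platelets, gave 7010, 5493, 5825, 4764 and 5252 counts against a median of 1689, a log2 fold change of 2.01 (SE 0.29). Tnnc1, the troponin C of heart and slow muscle, had a median of 231 counts in the rats below and a log2 fold change of 3.88 (SE 0.31). Nebl, the nebulin-like protein of heart, was not called, with 15, 0, 10, 33 and 18 counts against a median of 18. Ttn and Tcap were not analysed here.

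For calcium handling, Pln, phospholamban, which restrains the calcium pump, gave 3033, 1095, 900, 1431 and 1324 counts against at most 6, a log2 fold change of 9.96 (SE 0.33). Casq2, the calcium store protein calsequestrin, gave 1185, 789, 783, 788 and 606 counts against at most 5, a log2 fold change of 10.52 (SE 0.40). Atp2a2, the calcium pump itself, which blood cells also make, gave 5595, 2573, 2472, 3266 and 5178 counts against a median of 951 and a log2 fold change of 2.34 (SE 0.21). Some members were uneven. Ryr2, the calcium release channel, gave 229, 19, 40, 63 and 174 counts, Cmya5 225, 11, 47, 94 and 135, and Mylk3, a cardiac myosin kinase, 339, 13, 84, 87 and 105, each lowest in AMPH normothermic 12. That library also had 0 counts of Kcnj2, where the rats below had a median of 130, and 0 of Cdh5. Its median Spearman correlation with the other 63 rats was 0.903, and that of EIH 12 was 0.908, against 0.887 to 0.962 over all rats. These are low for the series, and the part of library quality in the results above was not tested. The file of AMPH normothermic 12 lists 26405 genes where those of the other 4 rats list 19356 to 20141. Without that rat 24 of 25 sarcomere and 12 of 16 calcium and membrane genes were still called, and as many without EIH 12. In the fit with all 5 rats, 13 of the 25 and 9 of the 16 passed the filter only through those rats, so that these had to differ. That the calls stayed is therefore no test of library quality. Cacna1c, the calcium channel of heart (16, 0, 13, 9 and 6 counts), and the cardiac transcription factor Nkx2-5 (10, 1, 6, 4 and 4 counts) were seen but too sparse to test. In muscle metabolism, Ckm, the cytosolic creatine kinase of muscle, gave 1049, 298, 476, 556 and 551 counts against at most 30, and Ldhb, the heart form of lactate dehydrogenase, had a log2 fold change of 2.75 (SE 0.37). Cd36, the fatty acid transporter that platelets and monocytes carry too, was not called, with 14406, 12374, 8130, 14185 and 13491 counts against a median of 6553.

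Genes outside all lists were taken by size of change, and most are known from striated muscle. All 15 passed the filter on low counts only through the 5 rats, so that they had to differ. Their fold changes are a description. Srl, sarcalumenin of the sarcoplasmic reticulum, gave 494, 129, 169, 208 and 314 counts against at most 4, and a log2 fold change of 9.10 (SE 0.46). Nrap, a myofibril assembly protein, gave 118, 77, 107, 101 and 121 counts against at most 2, and Cav3, the muscle caveolin, 211, 89, 65, 87 and 103 counts against at most 1. Tmem182, Trim54, Lrrc39, Klhl31, Eef1a2, Hspb7, Fxyd1 and Flnc, the muscle filamin, lay between 6.89 (Flnc) and 8.36 (Tmem182) on the log2 scale. Penk, the enkephalin precursor, gave 14, 257, 45, 128 and 92 counts against at most 5, and Rrad, a regulator of calcium channels, 139, 457, 31, 51 and 69 counts against at most 9. Penk and Rrad were both highest in AMPH normothermic 12. Gpc1, a glypican, completed the set with ENSRNOG00000023227, which carries no symbol in the files.

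Mitochondrial genes followed in part. The muscle forms moved with the markers: Cox6a2, the heart subunit of cytochrome oxidase, gave 2320, 2115, 759, 1252 and 1363 counts against at most 9, a log2 fold change of 9.68 (SE 0.33), and Ckmt2 1328, 812, 608, 808 and 812 counts against at most 3, a log2 fold change of 10.67 (SE 0.31). Slc25a4, the ADP/ATP carrier of heart, gave 5530, 3498, 2724, 4419 and 3355 counts against a median of 223, and a log2 fold change of 4.16 (SE 0.18). In the list of heart and muscle mitochondrial genes 10 of 11 tested were called higher, against 5.02% of all genes, Ucp3 being the one that was not. Of the 11, 4 passed the filter on low counts only through the 5 rats. Nuclear genes of mitochondria in all cells changed less, with 15 of 32 called higher, against 5.02% of all genes, and a median log2 fold change of 1.12. Idh2, an enzyme of the citric acid cycle, had the largest, 2.35 (SE 0.24), with 1046, 571, 671, 1056 and 1064 counts against a median of 202, while Cs, citrate synthase, was not called at 0.10 (SE 0.16). Transcripts of the mitochondrial genome stood near a doubling, with 9 of 9 listed genes called, beside the same 5.02%, and log2 fold changes of 1.06 to 1.76. COX1 gave 639975, 593078, 1000680, 829664 and 828680 counts against a median of 341847. Only MT-ATP6 of the 9 had all 5 rats above all 25. The mitochondrial sum did not follow Mb from rat to rat, at 52700, 43866, 53963, 75308 and 63639 CPM where Mb was 654, 370, 250.4, 447 and 413 CPM. When libraries were scaled by total counts alone, 1 of 9 mitochondrial genome transcripts and 3 of 32 general mitochondrial genes were called, with the median of all genes at -0.66. With the sequencing project added 3 of 9 mitochondrial genome transcripts were called. That fit rests on AMPH normothermic 2 and EIH 12. No rat below in the fit shares a project code with AMPH normothermic 12 or the 2 Saline control rats.

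**Figure D4:**
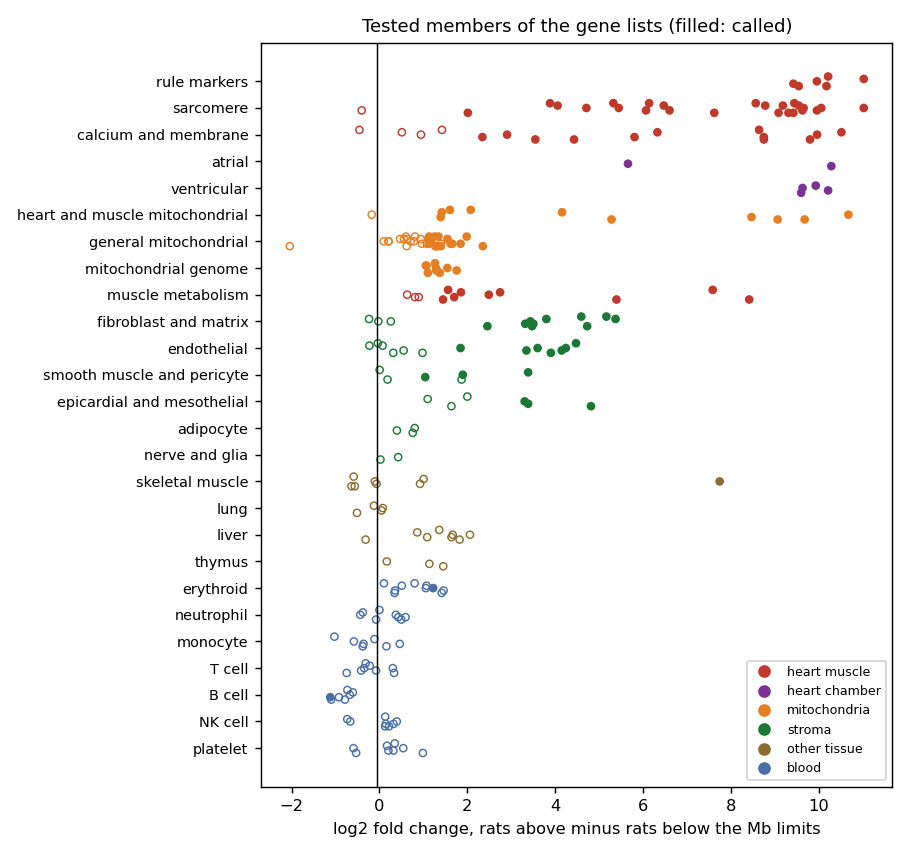
Each circle is 1 tested gene of a list, at its log2 fold change of the 5 rats above 5000 over the 25 rats below 100 Mb counts, filled where the adjusted p was under 0.05 and the change over 1 in size. The vertical line is the median of all 13197 genes tested, -0.05, with sarcomere and ventricular genes mostly far to its right, mitochondrial genome transcripts at 1.06 to 1.76, and blood list genes between -1.12 (Cd22) and 1.46 (Hba2).

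Stroma was present in part. In the fibroblast and matrix list 11 of 14 tested genes were called higher, against 5.02% of all genes. Of the 14, 3 passed the filter on low counts only through the 5 rats, so that these had to differ. Dcn, decorin, a matrix proteoglycan of fibroblasts, gave 942, 797, 925, 446 and 387 counts against at most 104, with no overlap. Lum (lumican) gave 100, 49, 113, 64 and 85 counts against at most 12, and Mgp, matrix Gla protein, 751, 752, 369, 250 and 321 against at most 214. Collagen was uneven, with Col3a1 at 382, 96, 1898, 265 and 223 counts, highest in EIH 12. Some rats between the limits held these genes too. Saline control 21, AMPH normothermic 14 and Saline cool 1 had 566, 240 and 238 counts of Dcn and 768, 666 and 464 of Col3a1. The other rats between the limits had at most 113 of Dcn and 251 of Col3a1. Fn1 (fibronectin), Gsn and Fbln1 were not called, with Fn1 at 2604, 16072, 22667, 4733 and 8555 counts against a median of 13663. Of the endothelial list 7 of 13 tested genes were called higher, against the same 5.02%, and 2 of the 13 passed the filter only through the 5 rats. Fabp4, a fatty acid-binding protein of capillary endothelium and fat, gave 1556, 1026, 988, 838 and 767 counts against at most 603 and a log2 fold change of 4.47 (SE 0.60). Emcn (endomucin) gave 78, 36, 70, 60 and 37 counts against at most 21, and Cav1 431, 227, 1030, 372 and 379 counts against at most 197. Vwf and Pecam1, which platelets and leukocytes also express, were not called, with Vwf at 927, 636, 1240, 617 and 1064 counts against a median of 1227. The summed fibroblast list was 361 to 813 CPM in the 5 rats and 181 to 1919 CPM in the rats below, and the endothelial list 98.1 to 169.6 against 46.1 to 233 CPM. With the sequencing project added, 5 of 14 fibroblast and 6 of 13 endothelial genes were called.

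Of the smooth muscle and pericyte list 3 of 6 tested genes were called higher, against 5.02% of all genes, with a median log2 fold change of 1.46. Of the 6, 1 passed the filter on low counts only through the 5 rats. The list summed to 52.4 to 152 CPM in the 5 rats and 34.9 to 247 CPM in the 25 below. Myh11, smooth muscle myosin, gave 4, 10, 10, 16 and 29 counts against a median of 14, and Cnn1, calponin, 1, 1 and 0 counts in the first 3 rats and was not listed in the files of the Saline control rats. Tagln (25, 35, 15, 18 and 34 counts) and Rgs5, a pericyte marker (98, 17, 65.8, 40 and 28.4 counts), were called higher with log2 fold changes of 1.04 (SE 0.27) and 1.90 (SE 0.59). Pdgfrb, a receptor of pericytes and fibroblasts, had the largest change, 3.39 (SE 0.69), with 37, 7, 22, 23 and 19 counts against a median of 1. With the project added, where the contrast rests on AMPH normothermic 2 and EIH 12, 0 of the 6 genes were called. Rgs5 lost its call without turning in 11 of the alternatives run and Tagln in 10, and in EIH alone, with 1 rat above the limit, the values of Tagln and Rgs5 were -0.06 and -0.30. Neither of the 2 nerve and glia genes tested was called, and 0 had an unadjusted p under 0.05 (edgeR; 0 by DESeq2). S100b, a glial calcium-binding protein, was too sparse to test, with 36 counts in EIH 12 and at most 2 in the other 4 rats.

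Skeletal muscle also makes Mb. Of its 18 listed genes, 7 had at most 3 counts in each of the 5 rats, and others had more. The same limit held for 10.9% of the 17366 genes listed in all files. Myh1, Myh4 and Pvalb, the fast myosins and parvalbumin, had 0 counts in all 5 rats. Myl1 gave 0, 2, 0, 2 and 3 counts, Tnni2 1, 6, 7, 4 and 15 and Tnnc2 4, 12, 2, 7 and 5, the last with a median of 7 in the rats below. Acta1, the skeletal alpha-actin that adult heart also makes, was the single gene of 8 tested that was called higher. It gave 798, 302, 318, 242 and 254 counts against at most 33. Of the 8, 2 passed the filter on low counts only through the 5 rats. Among all genes tested, 5.02% were called higher. The summed level of the 18 skeletal muscle genes was 16.5 to 30.8 CPM in the 5 rats, Acta1 included, and 6.65 to 34.3 CPM in the 25 rats below. Other libraries did hold skeletal muscle. Saline control 21, between the limits with 310 Mb counts, had 236 counts of Myh4, 166 of Myl1, 135 of Tnnc2 and 88 of Pvalb, and Saline cool 1, with 131 Mb counts, had 63 of Myl1, 65 of Tnnc2 and 24 of Pvalb. Both had heart markers too, with 68 and 20 counts of Tnni3.

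Other tissues stood out in single rats. EIH 12 had 105662 counts of Alb, albumin made by liver, 7240 of Ttr and 5775 of Fgb, while the other 4 rats had at most 320 of Alb. Its summed liver list of 3815 CPM ranked 5 of 64 rats, and the 4 rats above it all had fewer than 100 Mb counts, led by EIH 2 at 8142 CPM with 19 Mb counts. EIH 12 was also the highest of the 64 rats for the epicardial and mesothelial list, with 515 counts of Msln (mesothelin), 128 of Wt1 and 55 of Upk3b, where Msln was 2, 5, 18 and 54 in the other 4. Its sum of 45.7 CPM compares with 0.857 to 3.79 CPM in those 4. Next in rank were AMPH normothermic 14 at 27.7 CPM and Saline control 21 at 27.0 CPM. Msln was called higher with a log2 fold change of 3.39 (SE 0.79), but its value was -2.26 within AMPH normothermic rats alone. Of the 6 mesothelial genes tested 3 were called higher, against 5.02% of all genes, and 1 without EIH 12. Of the 6, 2 passed the filter on low counts only through the 5 rats. Thymus genes were highest of all rats in Saline control 20, with 2419 counts of Rag1, 821 of Dntt and 272 of Rag2, and Saline control 22 had 248, 96 and 28. In the other 3 rats Rag1 was at most 3 counts. Adipocyte genes were near 0 except in EIH 12 (55 counts of Adipoq and 63 of Cidec). Lung genes summed to 2.14 to 5.68 CPM in the 5 rats and 2.20 to 29.4 CPM, with a median of 4.57, in the 25 rats below. None of the 8 liver, 3 thymus, 4 lung and 3 adipocyte genes tested was called by edgeR against the 25 rats, and 0 had an unadjusted p under 0.05. Among all genes tested, 5.02% were called higher. The liver result turned on the rats compared. Against the 11 rats with fewer than 10 Mb counts, which leave out EIH 2 and EIH 9, edgeR called 7 of 8 liver genes higher. The median log2 fold change was 5.50 there, against 1.50 in the main comparison and 0.51 in the latter without EIH 12. DESeq2 called 4 of the 8 liver genes higher and none of the others.

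**Figure D5:**
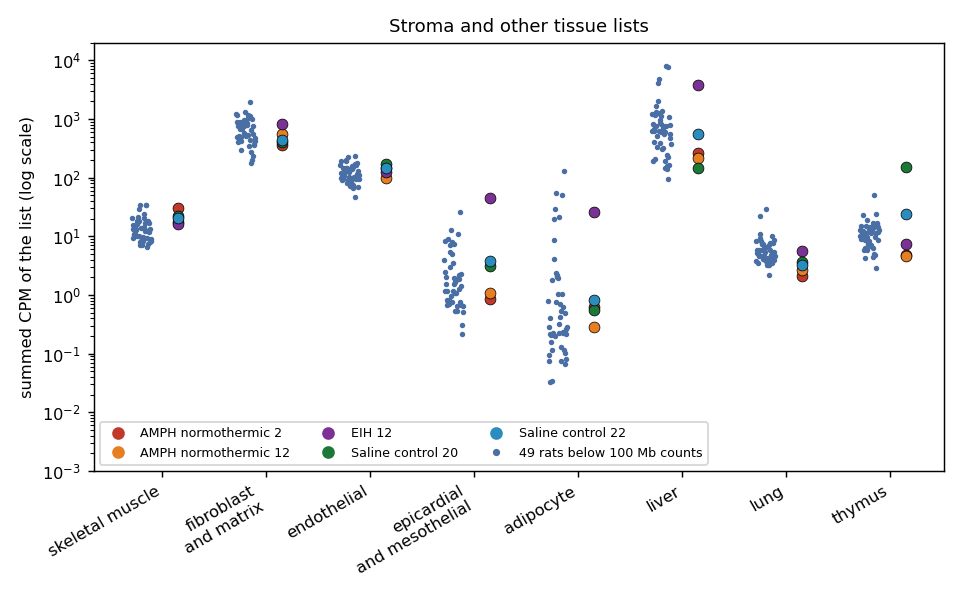
Summed CPM of 8 tissue lists (horizontal axis) on a log scale, with the 49 rats below 100 Mb counts as small points and the 5 rats above 5000 as coloured circles. EIH 12 stands above the other 4 for the mesothelial (45.7 CPM), adipocyte (26.3 CPM) and liver (3815 CPM) lists and Saline control 20 for the thymus list (150.1 CPM), while the skeletal muscle list lies within the range of the rats below in all 5.

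Blood lists differed in the direction of their medians, and few of their genes were called. Of 56 tested genes of the 7 blood lists, 1 was called higher (HBB) and 1 lower (Cd22). Among all genes tested, 5.02% were called higher and 0.644% lower. The 10 erythroid genes had a median log2 fold change of 0.93, with 6 at an unadjusted p under 0.05. In AMPH normothermic rats alone 5 of 10 were called higher with a median of 1.36. The erythroid median was 0.40 in EIH alone, 0.10 in Saline control alone and 0.56 without AMPH normothermic 12. The 7 B cell genes had a median of -0.78, with 4 at an unadjusted p under 0.05, and in AMPH normothermic rats alone 2 of 7 were called lower. The B cell median was -1.81 in EIH alone and -0.02 in Saline control alone. HBB is listed beside a second entry, Hbb, and the split of their reads is uncertain. Hemoglobin genes took 31.1%, 20.1%, 14.7%, 6.56% and 12.0% of counts in the 5 rats, against 3.28% to 33.3% in the 49 rats below 100 Mb counts. Within AMPH normothermic, rats 2 and 12 both lay above the 9 rats below, which ranged from 5.70% to 15.1%. EIH 12 lay inside the 3.71% to 33.3% of its group, and Saline control 20 and 22 lay on either side of the 8.15% to 9.11% of theirs. B cell genes split the 5 rats by group, with Cd79b at 589, 589, 605, 9830 and 4916 counts and Ms4a1 at 556, 325, 454, 5652 and 3118, high in both Saline control rats. Over all genes, 662 were called higher and 85 lower, 0.644% of those tested. Scaled by total counts alone the split was 349 higher and 1587 lower, with 6 of 7 B cell genes lower. Among the falls were Fcrl5, an Fc receptor-like protein of B cells (6, 3, 28, 39 and 27 counts against a median of 70), Baz2a, Bach2, a B cell transcription factor, and Gnptab, with log2 fold changes of -1.90, -1.42, -1.36 and -1.33. AMPH normothermic 12 held 6, 5 and 5 counts of the last 3, the lowest of the 5 rats for each, and without that rat 6 genes in all were called lower. Without EIH 12 the number was 13, and without AMPH normothermic 2 it was 346.

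The heart muscle lists together took 0.405%, 0.237%, 0.150%, 0.286% and 0.278% of all counts in the 5 rats. In the 10 rats between the limits the share was 0.0372% to 0.0714%, and in the 49 below 0.0243% to 0.0837%. These lists include genes with a level of their own in the rats below, such as Tpm1, Atp2a2 and Cd36. The 6 markers alone took 0.0582% to 0.187% of counts in the 5 rats. Their share was 0.00103% to 0.0122% between the limits and 0% to 0.00108% in the 49 below. Sequencing projects, known only from a code in the file names, differ between the 5 rats: AMPH normothermic 2, AMPH normothermic 12 and EIH 12 carry 3 different codes and both Saline control rats share 1. Within a code, the other 5 markers summed to 1217 CPM in AMPH normothermic 2 against 0.0959 to 3.06 CPM in the 4 rats below 100 Mb counts, and to 332 CPM in EIH 12 against 0.172 to 3.37 CPM in 5 rats. Saline control 20 and 22 reached 692 and 754 CPM where the 1 rat below 100 Mb counts with their code had 0.222 CPM, and AMPH normothermic 12 was alone in its project. A test of whether the difference depended on the treatment group (an interaction term in the same fit) gave its smallest adjusted p among heart muscle genes for Eno3, 0.588 (edgeR), with 1 EIH rat and 2 rats in each other group above the limit.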

How the data were processed

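Blood RNA of 64 rats, 1 library each, was depleted of globin transcripts and sequenced from stranded poly(A) libraries. Per the labels and the study's methods, the authors called bases with CASAVA 1.8.2, clipped the reads, aligned them with Bowtie 0.12.9 to the Ensembl rat transcriptome (rn5) and deposited RSEM 1.2.0 expected counts per gene, neither normalized nor rounded. Total counts per rat were 19055615 to 40530319.

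Rats were classed by Mb counts (more than 5000, fewer than 100), a measured value, so no test of Mb between the classes is given. The rats, the gene lists and the rules were chosen with earlier results of these data known. Files list different genes (26405 in any, 17366 in all), and a gene missing from a file was treated as not measured. Expected counts were rounded, and the 13197 genes that reached 10 counts in 5 or more of the 30 rats were fitted with edgeR 4.0.16 in R 4.3.3 (TMM, quasi-likelihood, treatment group as covariate). A call is a Benjamini-Hochberg adjusted p under 0.05 over all genes tested and an absolute log2 fold change above 1, and the SE is the log2 fold change divided by the square root of F. The fit was tested on simulated data. CPM are counts per 1000000 counts of a library. Of 293 list symbols, 282 were matched to the files in 26 lists. Rats are separate animals.

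Genes named are the 6 markers, the 3 members of each list with the highest mean CPM in the rats above, chamber genes at 0 in all of them, the 15 genes outside the lists with the largest called log2 fold change and a mean of at least 100 counts in the rats above, and the 5 largest falls with such a mean in the rats below. Some genes that the rule names are not reported here. Other list members are named for contrast, chosen after their values were seen. Correlations used log2(CPM + 0.1) and 100000 permutations run with numpy 2.4.6, with ranks from scipy 1.17.1 (Python 3.11.15, pandas 2.3.3). Plots were drawn in matplotlib 3.10.9. Alternatives were another normalization, DESeq2 1.42.0, other limits, filters and groups, the sequencing project, and single rats left out. Leaving out each of Saline control 17, 18 and 19 or single rats in the Myl2 proportion, and the rats between the limits, were added after seeing the data. Promoter windows came from RefSeq (GRCr8), whose positions were not mixed with rn5.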

Additional observations from a re-analysis of the deposited data

Results flagged for a closer look

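The highest or lowest rat was compared with the others by Dixon's ratio in 48 groups of values. Of these, 7 passed the 95% limit, where chance alone gives about 1 in 20. The groups share rats and Mb counts, and some hold the level of Mb, which classed the rats. The number that passed is therefore a description. Among the 5 rats with more than 5000 Mb counts, Hspb8 was 110.1 counts per 1000 Mb counts in EIH 12 against 15.5 to 23.9 in the other 4. Outside those rats, EIH 9 had 639 Hspb8 counts beside 36 of Mb. Csrp3 was 119 in AMPH normothermic 12 against 43.1 or less. Lrrc39 was 25.5 in AMPH normothermic 2 against 14.1 to 16.7, and Hrc, a calcium-binding protein of the sarcoplasmic reticulum, was 17.0 in Saline control 22 against 11.3 to 12.6. Among the 10 rats between the limits, Myh6 was 874 counts per 1000 Mb counts in AMPH normothermic 1, the rat with Myl7 and almost no Myl2, against 80.2 to 366. Saline cool 1 had 5.04 CPM of Mb against 0.0818 to 0.245 in the other 4 Saline cool rats, and 5.25 CPM of the other 5 markers against 0 to 0.0868. Its Mb count had already set it apart from those 4 rats by the rule, so the flag for Mb is no independent result.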

How the results depend on the processing

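No paired analysis was possible because rats above and below the Mb limits are different animals of the same treatment group, whose numbers pair nothing. The number of genes called higher, 662, was 349 with total counts only, 1035 with no filter on low counts, 431 with more than 1000 Mb counts as the upper limit, 329 with the sequencing project added, 187 in EIH alone and 118 in Saline control alone. The 85 called lower became 1587 with total counts only, 4 with the 1000 limit, 7 with fewer than 10 Mb counts, 16 with the project, 4 in EIH alone, 142 in AMPH normothermic alone, 5 in Saline control alone and 206 by DESeq2 (829 higher). Total counts alone thus gave 18.0% of calls higher against 88.6%, with the median of all genes at -0.66 against -0.05. Leaving out single rats gave 512 to 726 called higher and 6 to 346 called lower. Of 892 log2 fold changes of 45 called genes under the alternatives, 792 kept the call, 97 lost it, mostly Bach2, Rgs5, Gnptab, Tagln and Baz2a, and 3 turned: Rgs5 to -0.30 and Tagln to -0.0646 in EIH alone, and Msln to -2.26 in AMPH normothermic alone. The causes were not tested. The Mb relation in rats below the limit held under each alternative run (r 0.783 to 0.922). The heart share of counts (median 0.278%) was 0.306% without hemoglobin, and the mean Myl2 proportion of 113 per 1000 Mb counts was 103 to 125 without single rats. Genes of few counts, such as Irx4 or Myl4, are limited by depth, and lone rats in a group were assumed to vary like the others.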
